A study of Mus musculus with 138 samples.

Results

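A pair of groups of 30 mouse lungs each was compared, out of 138 lungs in all. In one group the mucous genes were high for the level of the leukocyte genes, and in the other the balance ran the opposite way. The mice were selected on measured levels of 8 genes, in the deposited log2 values of the probe with the highest mean. Each mouse had a mucous score, the mean z value over all mice of Clca1 (CLCA3 on the array), Muc5ac, Spdef and Foxa3. It also had a leukocyte score, the mean z value of Prg2, Ccl24, Ccl8 and Mmp12. The 30 mice with the highest mucous minus leukocyte score are called mucous-skewed here, the 30 with the lowest leukocyte-skewed, and the other 78 lie between them.

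All 138 were pre-Collaborative Cross mice, 1 animal from each partially inbred line, descended from the founder strains 129S1/SvImJ, A/J, C57BL/6J, CAST/Ei, NOD/LtJ, NZO/H1LtJ, PWK/Ph and WSB/Ei. Every mouse of both groups was sensitized with 10 ug of Der p 1, an allergen of house dust mites, into the peritoneum, challenged with 50 ug of it on day 15 and harvested on day 18, 72 hours later. Whole right lower lobes, inflated with embedding compound and frozen, were measured on Illumina WG6v2 arrays. No unchallenged mice are analysed here, so no value below is a response to the allergen, and the labels state neither age nor sex. Because measured levels set the groups, a call says that a gene goes with the balance of both scores across lines, not that a treatment changed it.

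After allergen challenge, cytokines of the type 2 response, above all IL-13, act through the transcription factor STAT6 on airway secretory cells. These cells turn on Spdef and Foxa3 and fill with the gel-forming mucin Muc5ac and the secreted protein Clca1. The same cytokines act on macrophages, which release the chemokines Ccl24 and Ccl8, attractants of eosinophils and monocytes, and the elastase Mmp12. Prg2 encodes the major basic protein of eosinophil granules. Mucous change of the epithelium and the influx of leukocytes usually occur together in allergic lungs, and the comparison asks which other genes go with one where the other is low. In whole lobes, fewer cells of a type and less RNA per cell cannot be told apart.

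Both scores were positively correlated over the 138 mice, with Pearson's r of 0.48, given as a description of values that share an array. In the mucous-skewed mice the mucous score was -0.26 at the lowest, 0.73 at the median and 2.30 at the highest, against -1.69, -0.67 and 0.66 in the leukocyte-skewed mice. The leukocyte score was -1.15, -0.45 and 0.44 in the mucous-skewed mice and -0.84, 0.48 and 2.45 in the leukocyte-skewed mice. The name "mucous without infiltrate" therefore fits only some of them. Of the 30 mucous-skewed mice, 21 had a mucous score above the mean of all mice and a leukocyte score below it, 8 were above on both and 1 was below on both. Of the 30 leukocyte-skewed mice, 12 had the reverse pattern, 9 were above on both and 9 were below on both. At the edge of the mucous-skewed group the last mouse inside had a score difference of 0.69 and the first outside 0.64, while at the other edge both values were -0.66.

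**Figure D1:**
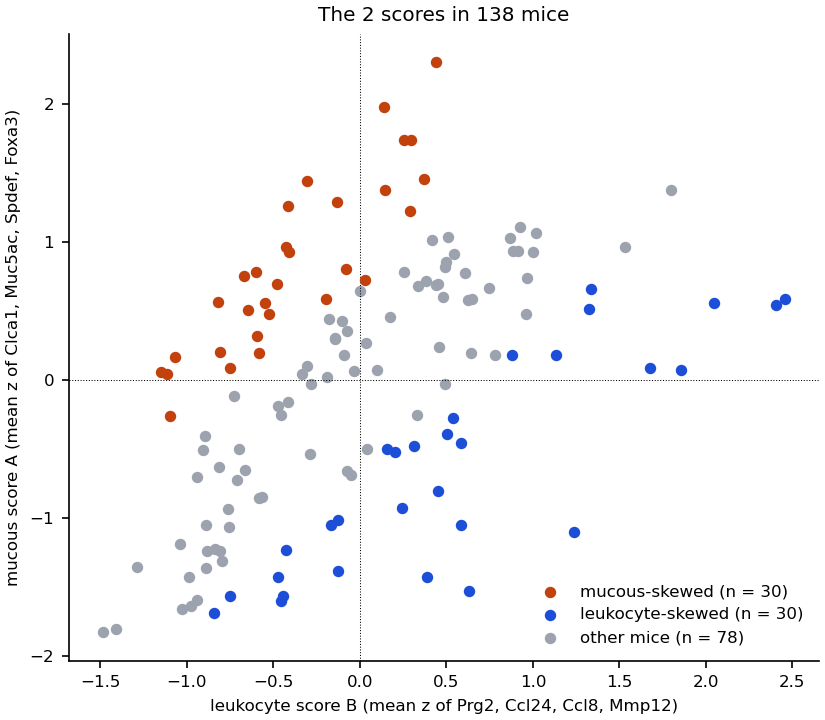
Mucous score (vertical axis) against leukocyte score (horizontal axis), both as mean z values, with 1 point per mouse: mucous-skewed (n = 30), leukocyte-skewed (n = 30) and the other mice (n = 78). Dotted lines mark the mean of all mice, and 21 mucous-skewed mice lie in the upper left field and 12 leukocyte-skewed mice in the lower right field.

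The 8 score genes set the groups and are described with no test, in deposited log2 units. Clca1 lay at 11.5, 12.5 and 13.1 (lowest, median, highest) in the mucous-skewed mice and at 5.79, 10.26 and 12.4 in the leukocyte-skewed mice. Muc5ac lay at 7.49, 9.75 and 11.8 in the mucous-skewed mice and at 5.73, 7 and 10.7 in the leukocyte-skewed mice. The groups overlap for both genes, with Clca1 high in every mucous-skewed mouse and spread over a wide range in the leukocyte-skewed ones. The highest deposited value of any probe was 13.4. The spread of Clca1 in the mucous-skewed mice may thus be narrowed near the top of the scale, which was not tested. Spdef had a median of 6.64 in the mucous-skewed mice and 5.80 in the leukocyte-skewed mice. It was detected above the negative controls in 30 mucous-skewed and 20 leukocyte-skewed mice, so it lay near the detection limit in some of the latter. Foxa3 had medians of 7.88 in the mucous-skewed and 6.46 in the leukocyte-skewed mice. On the other side, Mmp12 had a median of 6.49 in the mucous-skewed mice and 7.71 in the leukocyte-skewed mice, while Ccl8 had medians of 9.31 and 9.95. Prg2 was detected above the negative controls in 16 of 30 mucous-skewed mice (median 5.75) and in 25 of 30 leukocyte-skewed mice (median 6.57). Ccl24 was detected in 23 mucous-skewed mice (median 6.30) and in 28 leukocyte-skewed mice (median 7.13). The 4 mucous genes correlated with each other at r of 0.725 to 0.897 over the 138 mice and the 4 leukocyte genes at 0.378 to 0.606, so the members of the leukocyte score are less alike.

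Outside the 8, the genes whose levels followed the score difference most closely over the 138 mice were Chad (r = 0.689), Lypd2 (r = 0.634), Capn9 (r = 0.602), Cox8b (r = 0.582) and Sox21 (r = 0.579), given as a description. Chad encodes chondroadherin, a leucine-rich matrix protein best known from cartilage, and Lypd2 a small protein with a Ly6-type domain. Capn9 is a calpain protease known from the stomach mucosa, Cox8b a muscle-type subunit of cytochrome c oxidase and Sox21 a transcription factor. Furthest in the other direction were Aif1 (r = -0.515), a calcium-binding protein of macrophages, Galnt10 (r = -0.497), an enzyme that starts mucin-type O-glycans, Bcl2a1d (r = -0.496), Clec4a3 (r = -0.496) and Bcl2a1b (r = -0.494). Bcl2a1d and Bcl2a1b are near-identical copies of one survival gene, so their probes may read each other's transcripts. A STAT6-type motif, TTCNNNNGAA, was searched in the 250 bases before the start of each gene in RefSeq (GRCm38.p6). The motif reads the same on both strands, and 5.85% of 32851 such windows hold it. Of the 4 most alike genes with a window here, Chad and Capn9 hold it. A gene can have more than 1 window, so the next counts are of genes with a window, not of windows as in that share. Among the 15 largest rises between the groups 1 of 11 such genes holds it (Capn9), and among the 15 largest falls 1 of 10 (Cdkn3). Among the 10 largest positive slopes on the mucous score 1 of 5 such genes holds it (Capn9). Among the 10 largest negative slopes on that score 0 of 8 hold it. Among the 10 largest positive and negative slopes on the leukocyte score 0 of 7 and 0 of 7 hold it. It is in 0 of the windows of the 5 least alike genes and in 0 of those of the 4 score genes that have one (Foxa3, Spdef, Ccl8 and Mmp12). The windows of Chad (chr11:94564797-94565046, plus strand) and Capn9 (chr8:124575861-124576110, plus strand) are shown as those of most alike genes, with the motif in capitals. Those of Foxa3 (chr7:19023540-19023789, minus strand) and Ccl8 (chr11:82114935-82115184, plus strand) are shown as 1 gene of each score, with no match in the window.
Chad: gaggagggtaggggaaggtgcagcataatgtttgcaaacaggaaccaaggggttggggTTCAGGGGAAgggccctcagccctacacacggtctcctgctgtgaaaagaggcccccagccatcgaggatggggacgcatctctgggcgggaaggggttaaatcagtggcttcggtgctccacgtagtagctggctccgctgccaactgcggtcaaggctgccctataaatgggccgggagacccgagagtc
Capn9: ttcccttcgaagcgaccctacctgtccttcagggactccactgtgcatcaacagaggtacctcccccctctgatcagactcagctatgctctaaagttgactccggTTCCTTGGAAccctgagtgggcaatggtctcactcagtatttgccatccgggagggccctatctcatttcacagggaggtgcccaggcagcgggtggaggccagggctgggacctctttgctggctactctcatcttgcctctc
Foxa3: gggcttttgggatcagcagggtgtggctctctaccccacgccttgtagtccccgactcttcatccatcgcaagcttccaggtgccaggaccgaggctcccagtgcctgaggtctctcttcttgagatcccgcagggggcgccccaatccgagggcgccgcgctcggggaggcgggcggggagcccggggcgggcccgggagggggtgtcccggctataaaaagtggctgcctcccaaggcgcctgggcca
Ccl8: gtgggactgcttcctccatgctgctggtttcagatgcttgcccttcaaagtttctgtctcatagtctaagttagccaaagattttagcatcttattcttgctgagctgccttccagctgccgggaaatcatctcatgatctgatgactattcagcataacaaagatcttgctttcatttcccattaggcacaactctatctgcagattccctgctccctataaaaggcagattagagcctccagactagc

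Between the groups, 1337 of 16609 genes tested were called (8.05%) by limma at an adjusted p under 0.05, with p-values adjusted over all genes by Benjamini-Hochberg. In the mucous-skewed mice 692 were higher (4.17%) and 645 lower (3.88%). A count of 1 or 2 members in a short list is to be set beside these shares, and whether it exceeds them was not tested. The median difference over all genes was 0.01. Levels and differences from here on are normalized log2 intensities, and a difference is mucous-skewed minus leukocyte-skewed with its standard error (n = 30 mice per group). The number of arrays limits the precision. The median number of detected probes was 20324 in the mucous-skewed and 20443 in the leukocyte-skewed mice. A number in the sample titles, which the labels do not explain, was at most 120 in 14 mucous-skewed and 13 leukocyte-skewed mice and above 120 in the other 16 and 17. Within the lower range 580 genes were called (296 higher, 284 lower) and within the upper range 162 (110 higher, 52 lower). The group difference itself differed between the ranges for 0 genes (limma interaction, adjusted p under 0.05), with 1621 at an unadjusted p under 0.05. A mucous-skewed mouse with high skeletal muscle genes and 2 leukocyte-skewed mice with high interferon gamma genes stood apart. Without these 3, left out after seeing the data, 1271 genes were called (719 higher, 552 lower). Of the genes named here, Bpifa1, Ccr8, Spp1, Clec4n, Col1a1, Saa3 and Il1b then no longer passed, with differences of 1.37, -0.29, -0.90, -0.98, -0.57, -1.21 and -0.62.

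**Figure D2:**
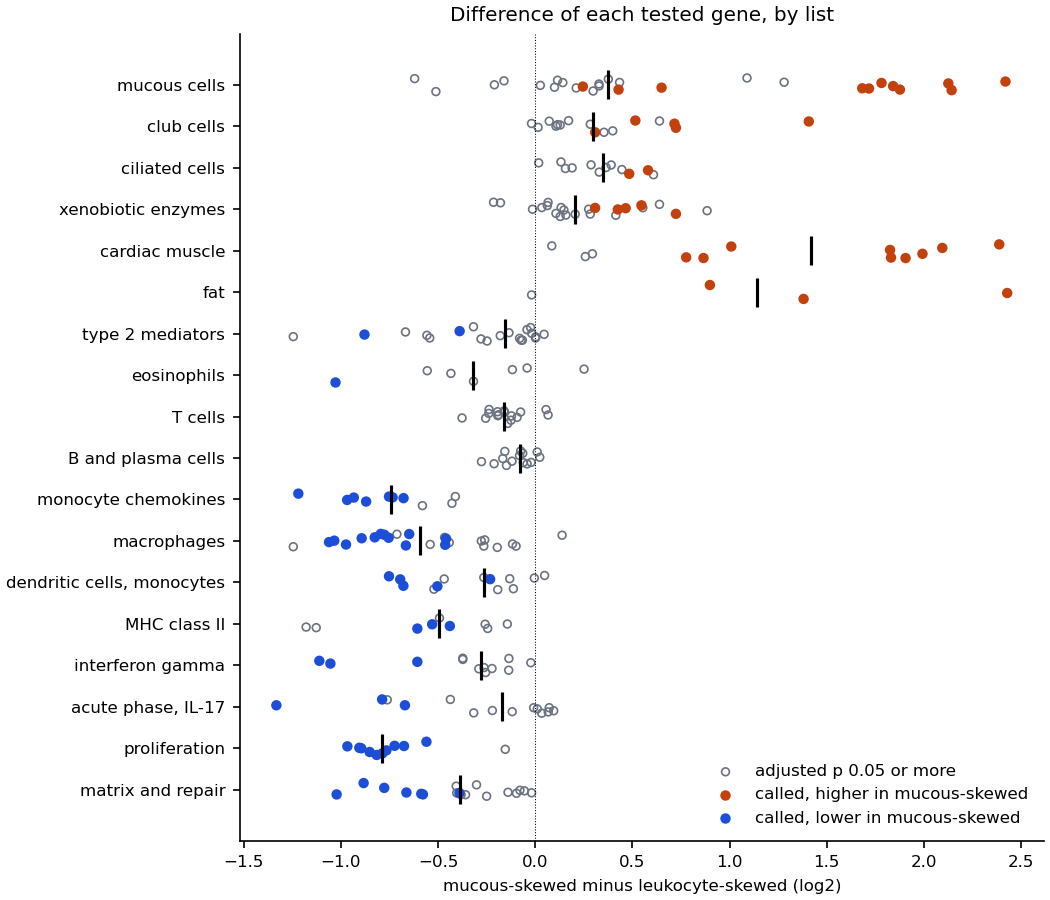
Difference between the groups (mucous-skewed minus leukocyte-skewed, log2) for every tested gene of 18 gene lists, 1 point per gene, with a black bar at each list's median. Filled points passed the adjusted threshold, all of them to the right of 0 for epithelial, muscle and fat lists and all to the left for leukocyte, proliferation and matrix lists.

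Of 27 mucous cell genes beyond the 4 in the score, 11 were higher in the mucous-skewed mice, among them trefoil peptides, a further mucin and a mucus-bound protein, and 0 were lower. The other 16 did not pass, and the median difference of the list was 0.38. Tff2, a trefoil peptide secreted with mucins, lay at 6.90, 11.35 and 12.32 (lowest, median, highest) in the mucous-skewed mice and at 5.59, 8.41 and 11.86 in the leukocyte-skewed mice. Its difference was 2.42 ± 0.38 (5.35-fold, adjusted p = 1.92e-05). The ranges overlap, but 29 of 30 mucous-skewed mice were above the leukocyte-skewed median. Capn9 lay at 5.93, 7.94 and 10.32 in the mucous-skewed mice and at 4.34, 5.60 and 7.70 in the leukocyte-skewed mice. It was detected in 30 mucous-skewed and 20 leukocyte-skewed mice. Its difference was 2.14 ± 0.24, given with no test since Capn9 was among the genes most like the score difference. All 30 mucous-skewed mice were above the leukocyte-skewed median of Capn9 and 17 were above the highest leukocyte-skewed mouse.

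The other mucous genes that passed spanned secreted products and the machinery behind them. Tff1, a second trefoil gene, was higher by 2.13 ± 0.39 (adjusted p = 0.000165) and Fcgbp, an IgG-binding protein of mucus, by 1.88 ± 0.28 (adjusted p = 1.06e-05). Both were detected in 30 mucous-skewed mice, but in only 16 (Tff1) and 18 (Fcgbp) leukocyte-skewed mice, so they lay near the detection limit in some of the latter. Muc5b, the gel-forming mucin of resting airways, was higher by 1.72 ± 0.28 (adjusted p = 4.12e-05). Ern2, an endoplasmic reticulum stress sensor of mucus-secreting epithelia, was higher by 1.68 ± 0.23 (adjusted p = 1.09e-06). Scin, which encodes an actin-severing protein, and the antibacterial lectin gene Reg3g were higher by 1.84 and 1.78 (adjusted p = 0.000465 and 0.00296). The forkhead factors of the airway epithelium differed by less, Foxa1 by 0.43 ± 0.10 (adjusted p = 0.00177) and Foxa2 by 0.25 ± 0.07 (adjusted p = 0.0239).

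For 3 genes of the same list, Slc26a4, Fxyd4 and Retnlb, the group difference did not pass and the slopes on both scores did. Slc26a4 encodes pendrin, an anion exchanger of mucous airways, and lay at 7.02, 10.12 and 11.86 in the mucous-skewed mice and at 8.56, 10.44 and 11.96 in the leukocyte-skewed mice. The groups overlap over nearly the whole range, and the difference was -0.51 ± 0.28 (adjusted p = 0.297). In a fit of both scores together over the 138 mice, Slc26a4 rose by 0.54 log2 units per unit of the mucous score (adjusted p = 8.0e-07). It rose by 1.03 per unit of the leukocyte score (adjusted p = 1.7e-15). Fxyd4, a regulator of the sodium pump, had slopes of 0.54 and 1.15 on the mucous and leukocyte scores (adjusted p = 0.00033 and 3.1e-12) and a group difference of -0.62 ± 0.40 (adjusted p = 0.398). Retnlb, a secreted resistin-like protein, had slopes of 0.76 and 0.82 (adjusted p = 1.1e-10 and 8.4e-10) and a group difference of 0.33 ± 0.39 (adjusted p = 0.696).

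Some genes of other airway epithelial cells also lay higher in the mucous-skewed mice, by smaller amounts. Of 16 genes of club cells, the non-ciliated secretory cells of mouse bronchioles, 5 were higher and 0 lower (median 0.30). Gsto1, a glutathione transferase, lay at 11.11, 12.12 and 12.69 in the mucous-skewed mice and at 10.51, 11.38 and 12.18 in the leukocyte-skewed mice. It was higher by 0.72 ± 0.10 (adjusted p = 5.25e-06), with 28 of 30 mucous-skewed mice above the leukocyte-skewed median. The aldehyde dehydrogenase Aldh3a1 was higher by 0.72 ± 0.16 (adjusted p = 0.00142) and the club cell cytochrome Cyp2f2 by 0.31 ± 0.07 (adjusted p = 0.00435). Scgb1a1, the standard club cell marker, differed by -0.02 ± 0.03 (adjusted p = 0.774) and lay between 12.93 and 13.35 in every mouse of both groups. The upper value is also the highest of any tested gene in these mice, so its probe lies at or near the top of the scale, where a difference may not show. The secreted airway protein Bpifa1 was spread widely in both groups and higher by 1.41 ± 0.45 (adjusted p = 0.0394).

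Of 12 genes of ciliated cells 2 were higher, the axonemal genes Cfap126 (0.48 ± 0.11, adjusted p = 0.00314) and Dnah9 (0.58 ± 0.14, adjusted p = 0.00517). Foxj1, the master regulator of motile cilia, differed by 0.19 ± 0.08 (adjusted p = 0.118). Of 23 genes that handle foreign compounds 5 were higher and 0 lower (median 0.21). Aldh3a1 and Cyp2f2, already counted on the club cell list, were among these 5. The others were the epoxide hydrolase gene Ephx1, the cytochrome gene Cyp2s1 and the glutathione transferase gene Gsta4, with differences of 0.47, 0.55 and 0.43 (adjusted p = 0.000695, 0.000726 and 0.000903). Sox2, a transcription factor of the conducting airway, was higher by 0.51 ± 0.11 (adjusted p = 0.00129).

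The genes most like the score difference were chosen for following the values that set the groups, so their levels are a description with no test. Lypd2 lay at 11.07, 11.77 and 12.77 in the mucous-skewed mice and at 8.37, 10.70 and 11.62 in the leukocyte-skewed mice. The difference was 1.24 ± 0.15, and 21 mucous-skewed mice were above the highest leukocyte-skewed mouse. Chad lay at 9.07, 10.36 and 11.43 in the mucous-skewed mice and at 7.54, 8.59 and 10.29 in the leukocyte-skewed mice, a difference of 1.61 ± 0.16. For Chad, 16 mucous-skewed mice were above every leukocyte-skewed mouse. Sox21 and Cox8b had differences of 1.42 ± 0.17 and 1.43 ± 0.21. Capn9, also among the 5 most alike, is on the mucous cell list.

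Heart muscle and fat genes made up most of the 15 largest rises in the mucous-skewed mice. Of these 15, Tff2, Capn9, Tff1 and Fcgbp are on the mucous cell list and Cfd (adipsin, 2.43 ± 0.46, adjusted p = 0.000278) is a fat cell gene. The other 10 are genes of striated muscle, Sln, Mybphl, Csrp3, Myh6, Mb, Tcap, Ckmt2, Nppa, Myl3 and Tnnc1, with differences of 1.86 to 2.39. In mice, heart muscle cells line the pulmonary veins inside the lung. Myh6, a myosin heavy chain of heart muscle, lay at 5.84, 9.41 and 11.19 in the mucous-skewed mice and at 4.66, 7.51 and 10.11 in the leukocyte-skewed mice. It was higher by 2.10 ± 0.36 (adjusted p = 9.94e-05), was detected in 30 mucous-skewed and 26 leukocyte-skewed mice, and a second, dimmer probe of Myh6 differed by 0.35. Of 12 heart muscle genes 9 were higher and 0 lower (median 1.40). Their summed linear intensity was 2430, 10000 and 24200 (lowest, median, highest) in the mucous-skewed mice and 1120, 3730 and 18400 in the leukocyte-skewed mice, so the ranges overlap.

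Of the 4 fat genes tested 3 were higher, Cfd, the hormone gene Adipoq (0.90 ± 0.24, adjusted p = 0.00918) and the carbonic anhydrase gene Car3 (1.38 ± 0.33, adjusted p = 0.00415). Their sum was 96, 1040 and 7270 in the mucous-skewed mice and 82.3, 257 and 1680 in the leukocyte-skewed mice. Of 8 skeletal muscle genes 2 were higher. Their sum reached 36900 in 1 mucous-skewed mouse, against a median of 547 in the mucous-skewed mice and a highest value of 859 in the leukocyte-skewed mice.

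Since the heart muscle genes moved with the mucous genes, the groups were also compared with the mean z value of the heart muscle genes in the fit, a choice made after seeing the data. With it, 753 genes were called (289 higher, 464 lower; 1.74% and 2.79% of those tested). On the mucous cell list 6 of 27 were then higher, on the club cell list 4 of 16 and on the heart muscle list 0 of 12, whose own mean is the covariate. On the macrophage list 13 of 24 and on the proliferation list 10 of 11 were lower. The heart muscle mean correlated with the mucous score at r = 0.50 and with the leukocyte score at r = 0.05 over the 138 mice, as a description. With mean z values of heart muscle, fat, ciliated and smooth muscle genes together in the fit, 379 genes were called (86 higher, 293 lower; 0.518% and 1.76% of those tested). On the mucous cell list 4 of 27 and on the club cell list 1 of 16 were then higher. On the macrophage list 9 of 24 and on the proliferation list 9 of 11 were lower.

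Of 20 mediators of the type 2 response tested, 2 were lower in the mucous-skewed mice and 0 higher, with a median difference of -0.16, against 3.88% lower over all genes. Ccl17, a chemokine that draws type 2 helper T cells, lay at 5.82, 7.19 and 8.79 in the mucous-skewed mice and at 6.41, 8.07 and 10.59 in the leukocyte-skewed mice. It was lower by 0.88 on the log2 scale (-0.88 ± 0.21, adjusted p = 0.00411), and 26 of 30 mucous-skewed mice were below the leukocyte-skewed median. The dim receptor gene Ccr8, on such T cells, was the second (-0.39 ± 0.13, adjusted p = 0.0467). Il4 differed by -0.56 ± 0.21 (adjusted p = 0.0975), and Il13, near its detection limit, by -0.02 ± 0.08 (adjusted p = 0.927). The eotaxin gene Ccl11 differed by -0.54 ± 0.41 (adjusted p = 0.493), with groups that overlap almost fully.

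Arg1, the arginase of alternatively activated macrophages, had a large difference that did not pass. It lay at 5.05, 7.61 and 11.81 in the mucous-skewed mice and at 6.30, 8.87 and 12.12 in the leukocyte-skewed mice (-1.25 ± 0.42, adjusted p = 0.0531). The chitinase-like gene Chil3 differed by -0.67 ± 0.23 (adjusted p = 0.0669) and the resistin-like gene Retnla by -0.02 ± 0.07 (adjusted p = 0.885). For Chil3, 2 other probes gave larger differences, -0.93 and -1.09. A pair of probes of Chil4 gave 0.0027 and 1.74, so its difference is uncertain. Of 7 eosinophil genes 1 was lower, Rnase2a, a ribonuclease of the eosinophil-associated family. It lay at 5.48, 10.48 and 12.40 in the mucous-skewed mice and at 8.84, 11.45 and 12.56 in the leukocyte-skewed mice (-1.03 ± 0.32, adjusted p = 0.0282), with 23 of 30 mucous-skewed mice below the leukocyte-skewed median. By limma 0 of 16 T cell genes (median -0.16), 0 of 14 B and plasma cell genes and 0 of 7 natural killer cell genes were called, with 1, 0 and 1 at an unadjusted p under 0.05. With the sum of both scores in the fit, 7 of the 20 type 2 mediators, 4 of the 7 eosinophil genes and 1 of the 16 T cell genes were lower, against 5.23% of all genes under that fit.

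Of 10 monocyte chemokine and receptor genes 7 were lower in the mucous-skewed mice and 0 higher (median -0.74). Ccr2, the receptor by which monocytes leave the marrow, lay at 4.33, 5.25 and 6.50 in the mucous-skewed mice and at 4.31, 6.28 and 7.33 in the leukocyte-skewed mice. Its difference was -0.75 ± 0.19 (0.594-fold, adjusted p = 0.00737). In 29 of 30 mucous-skewed mice Ccr2 was below the leukocyte-skewed median, and 11 leukocyte-skewed mice were above every mucous-skewed mouse. The inflammatory chemokine genes Ccl3 and Ccl4 differed by -0.73 ± 0.20 and -0.87 ± 0.23 (adjusted p = 0.0144 and 0.00756). Ccl9 was lower as well (-0.68 ± 0.17, adjusted p = 0.00559). The Ccr2 ligands Ccl7 (-0.97 ± 0.27, adjusted p = 0.0154) and Ccl12 (-0.93 ± 0.17, adjusted p = 0.000238) lie beside the score gene Ccl8 in one chemokine cluster. A second probe of Ccl12 followed the one used at r of only 0.181.

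Of 24 genes of alternatively activated and tissue macrophages 12 were lower and 0 higher (median -0.59), and the other 12 did not pass. Ctsk, a collagen-cleaving cathepsin, lay at 7.83, 8.95 and 10.24 in the mucous-skewed mice and at 8.47, 10.20 and 11.46 in the leukocyte-skewed mice. Its difference was -1.06 ± 0.16 (adjusted p = 1.06e-05), and 29 of 30 mucous-skewed mice were below the leukocyte-skewed median. The complement genes C1qa, C1qb and C1qc, made mostly by macrophages, differed by -0.65, -0.75 and -0.83 (adjusted p = 0.00317, 0.00221 and 0.000141). Cd68, a lysosomal protein of macrophages, was lower (-0.78 ± 0.15, adjusted p = 0.000264), as was the lipid receptor gene Trem2 (-0.79 ± 0.20, adjusted p = 0.00583). The mannose receptor gene Mrc1 differed by -0.46 ± 0.12 (adjusted p = 0.00963) and Spp1, osteopontin, by -0.97 ± 0.32 (adjusted p = 0.0411). The IgG receptor gene Fcgr2b differed by -1.03 ± 0.20 (adjusted p = 0.000264) on the probe used, with 3 other probes at -0.92, -0.20 and -0.10.

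Fcgr3, another IgG receptor gene already counted on the macrophage list, was lower (-0.89 ± 0.18, adjusted p = 0.000544). Markers of the wider monocyte line followed in part. The growth factor receptor gene Csf1r (-0.50 ± 0.12, adjusted p = 0.0047) and the lectin gene Mgl2 (-0.69 ± 0.18, adjusted p = 0.00901) were lower. Of 10 alveolar macrophage genes 1 was lower and 0 higher. Aif1 lay at 6.34, 7.23 and 8.12 in the mucous-skewed mice and at 7.07, 8.09 and 9.88 in the leukocyte-skewed mice, a difference of -0.96 ± 0.14, given with no test since it was among the genes least like the score difference. For Galnt10, also among these, the probe used gave -0.58 ± 0.09 and 2 other probes -0.07 and -0.10. With the mean z value of the macrophage list added to the fit, a choice made after seeing the data, 307 genes were called (273 higher, 34 lower; 1.64% and 0.205% of those tested). Of the mucous cell list 13 were then higher and of the heart muscle list 9. Of the 11 cell division genes 0 were called. The macrophage mean correlated with the mucous score at r = 0.14 and with the leukocyte score at r = 0.66 over all mice, as a description. With the score difference it correlated at r = -0.45, so this covariate holds part of what set the groups. Whether macrophages account for the lost calls was not tested.

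**Figure D3:**
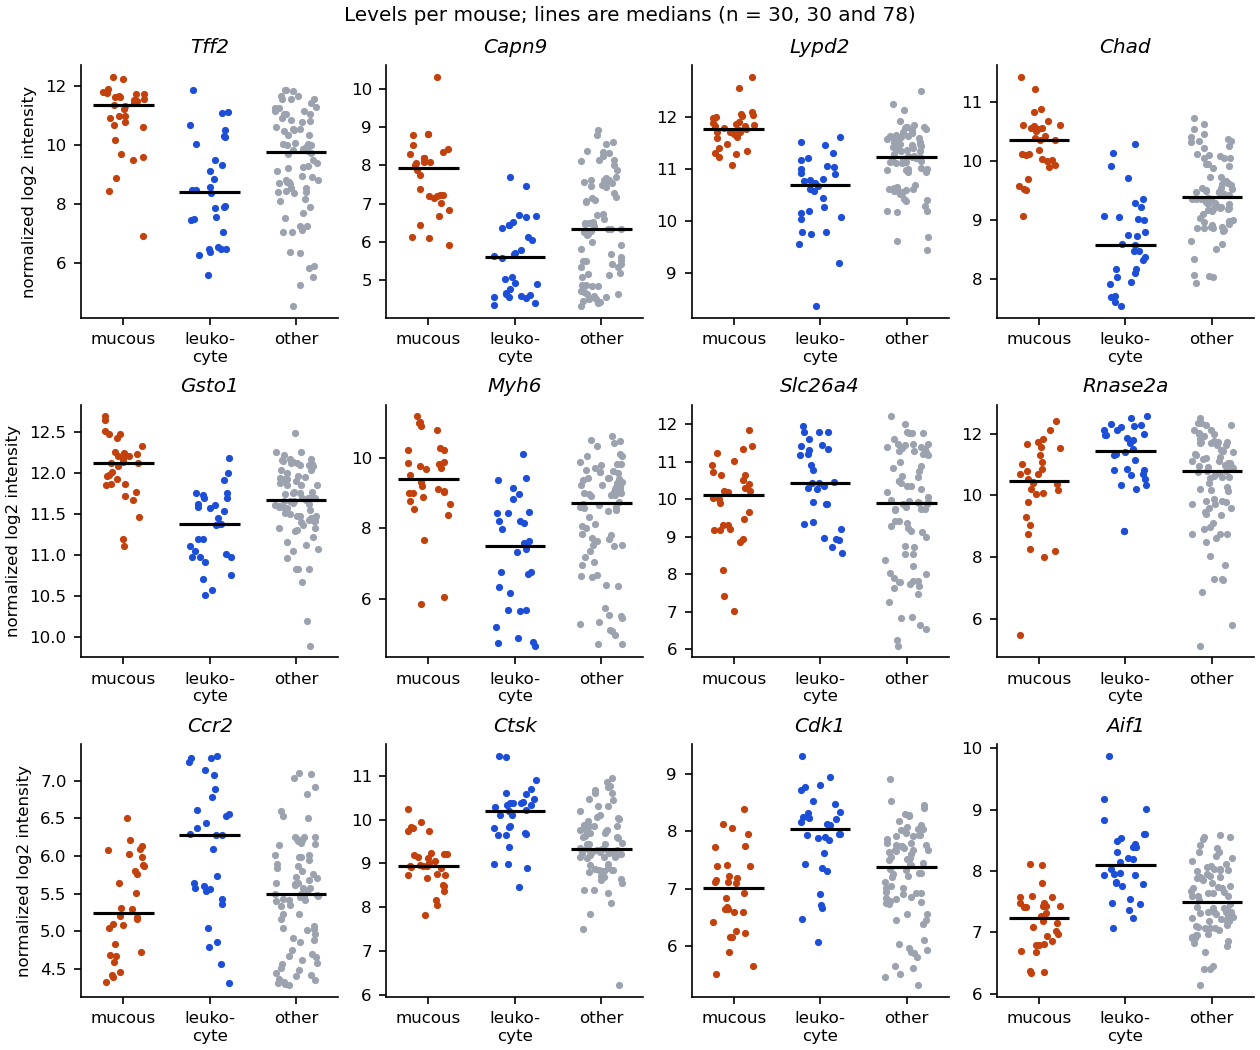
Normalized log2 intensity (vertical axes) of 12 genes in each mouse, with mucous-skewed mice on the left, leukocyte-skewed mice in the middle and the other 78 on the right, and a line at each median. Capn9, Lypd2 and Chad separate the groups most fully of the 12, with 17, 21 and 16 mucous-skewed mice above every leukocyte-skewed mouse, while for Slc26a4 the groups overlap almost fully.

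Most cell division genes were lower in the mucous-skewed mice. Of 11 tested, 10 were lower and 0 higher, with a median of -0.79. The kinase gene Cdk1, which drives entry into mitosis, lay at 5.52, 7.01 and 8.38 in the mucous-skewed mice and at 6.08, 8.03 and 9.31 in the leukocyte-skewed mice. Its difference was -0.97 ± 0.19 (adjusted p = 0.00046), and 27 of 30 mucous-skewed mice were below the leukocyte-skewed median. The mitotic kinase gene Aurkb (-0.91 ± 0.17, adjusted p = 0.000165) and the topoisomerase gene Top2a (-0.82 ± 0.20, adjusted p = 0.00464) were lower. Outside the list, so were the mitotic kinase gene Pbk (-1.02 ± 0.23, adjusted p = 0.00244) and Cdkn3, a phosphatase of cyclin-dependent kinases (-0.98 ± 0.18, adjusted p = 0.00023). Plk1, another mitotic kinase gene, was the list member that did not pass (-0.15 ± 0.35, adjusted p = 0.854).

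Of 18 genes of matrix and repair 7 were lower and 0 higher (median -0.39), against 4 lower without the 3 mice that stood apart. Timp1, an inhibitor of matrix proteases, lay at 7.92, 10.16 and 12.25 in the mucous-skewed mice and at 9.37, 11.29 and 12.54 in the leukocyte-skewed mice. Its difference was -1.02 ± 0.25 (adjusted p = 0.00464), with 25 of 30 mucous-skewed mice below the leukocyte-skewed median. The fibrillar collagen genes Col1a1, Col1a2 and Col3a1 differed by -0.59, -0.88 and -0.78 (adjusted p = 0.0333, 0.0161 and 0.00696).

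Some genes that answer interferon gamma and inflammatory cytokines were lower in the mucous-skewed mice as well. Saa3, an acute phase protein, had the largest fall past the threshold under the naming rule. It lay at 5.12, 8.20 and 11.46 in the mucous-skewed mice and at 5.66, 9.81 and 11.95 in the leukocyte-skewed mice (-1.33 ± 0.40, adjusted p = 0.0242), and the groups overlap. The iron-binding lipocalin gene Lcn2 (-0.79 ± 0.16, adjusted p = 0.000664) and the cytokine gene Il1b (-0.67 ± 0.21, adjusted p = 0.0307) were lower too. These 3 were the acute phase genes that passed out of 14, against 1 without the 3 mice that stood apart.

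Of 12 interferon gamma genes 3 were lower, the T cell chemokine genes Cxcl9 (-1.11 ± 0.32, adjusted p = 0.0186) and Cxcl10 (-1.05 ± 0.28, adjusted p = 0.0085) and Ciita. Ciita, which switches on MHC class II genes, differed by -0.61 ± 0.14 (adjusted p = 0.00259). Of 9 genes of MHC class II presentation 3 were lower, Ciita among them, with the peptide loading gene H2-DMa (-0.53 ± 0.13, adjusted p = 0.00382). Of 12 type 1 interferon genes 0 were called by limma, and 0 had an unadjusted p under 0.05. The 15 largest falls also held Rgs1, a brake on chemokine receptor signals in leukocytes (-1.01 ± 0.23, adjusted p = 0.00276). The lectin gene Clec4n (dectin-2, 0.499-fold, adjusted p = 0.0436) and Gpr176 (-0.97 ± 0.19, adjusted p = 0.000465) were among them too. Gpr176 was detected in 17 mucous-skewed and 30 leukocyte-skewed mice.

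By limma 0 genes were called among 14 alveolar type 1, 14 alveolar type 2 and 10 smooth muscle genes, of which 1, 2 and 0 had an unadjusted p under 0.05. The same held for 8 red cell, 8 platelet and 11 housekeeping genes, with 0, 2 and 4 at an unadjusted p under 0.05. The medians of these 6 lists lay between -0.07 and 0.20. Of the lists not yet described, 5 of 13 genes of dendritic cells and monocytes, 1 of 13 of neutrophils and 1 of 10 immediate early genes were lower and 0 higher. Of these calls, Ccr2, Lcn2 and Egr2 were already counted on the monocyte chemokine, acute phase and macrophage lists. Of the airway basal cell list 1 of 6 genes was higher, of the neuroendocrine and tuft cell list 2 of 7, of the endothelial list 2 of 15 and of the mesothelial list 1 of 8, with 0 lower. Krt15, the call on the basal cell list, was already counted on the club cell list. Among 8 mast cell and basophil genes and 5 morning clock genes limma called 0, and 0 had an unadjusted p under 0.05. The same counts, 0 and 0, held for 4 sex-linked genes.

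Which score a gene went with was read from the fit of both scores together over the 138 mice, in which a slope is log2 units per unit of one score at a given level of the other. On the mucous score 1180 genes had a positive slope (7.1%) and 957 a negative one (5.76%), 12.9% in all. On the leukocyte score 1886 had a positive slope (11.4%) and 2014 a negative one (12.1%), 23.5% in all. Of the 692 genes higher in the mucous-skewed mice, 497 rose with the mucous score, 530 fell with the leukocyte score and 342 did both. Of the 645 lower genes, 602 rose with the leukocyte score and 227 fell with the mucous score. These classes share the scores that set the groups and are a description of the calls, not support for them.

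The mucous cell list went with the mucous score, since 23 of 27 genes rose with it and 0 fell, while 7 rose and 3 fell with the leukocyte score. The slope of Tff2 was 1.56 on the mucous score (adjusted p = 1.2e-21) and -0.15 on the leukocyte score (adjusted p = 0.49). Foxa2, a forkhead factor, had slopes of 0.05 and -0.15 on the mucous and leukocyte scores (adjusted p = 0.31 and 0.00041). Of the club cell genes 3 of 16 rose with the mucous score and 10 fell with the leukocyte score. Of the genes that handle foreign compounds 2 of 23 rose with the mucous score and 13 fell with the leukocyte score. Ephx1 had slopes of 0.06 (adjusted p = 0.19) and -0.33 (adjusted p = 5.9e-13). Of the heart muscle genes 11 of 12 rose with the mucous score and 6 fell with the leukocyte score.

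Some immune lists and the cell division and matrix lists rose with the leukocyte score, against 11.4% of all genes. With it rose 14 of 20 type 2 mediators, 12 of 16 T cell genes and 5 of 7 eosinophil genes, while 3, 0 and 0 of them rose with the mucous score. With it also rose 18 of 24 macrophage genes, 10 of 11 cell division genes and 13 of 18 matrix genes, while 1, 0 and 0 rose with the mucous score. The same held for 9 of 12 interferon gamma, 9 of 12 type 1 interferon, 8 of 14 acute phase and 5 of 9 MHC class II genes. Of these 4 lists 0 genes rose with the mucous score, and 1 acute phase gene fell with the leukocyte score. Other immune lists lay nearer to the share over all genes, since 2 of 14 B and plasma cell genes, 1 of 7 natural killer cell genes, 2 of 10 alveolar macrophage genes and 0 of 8 mast cell and basophil genes rose with the leukocyte score. The largest positive slope on the leukocyte score was that of Arg1 (1.53, adjusted p = 2.8e-22). Rnase2a (1.23), Fxyd4, Ccl11 (1.10), Saa3 (1.05), Slc26a4, Cxcl9 (0.94), Csrp1 (0.94), Il4i1 (0.92) and Rgs1 (0.89) followed. Csrp1 lay on 2 levels over the 138 mice, 52 mice below and 86 above a gap of 3.12 log2 units.

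Among the 10 largest negative slopes on the leukocyte score were those of Krtap17-1 (-0.71), Pon1 (-0.66), Cfd (-0.65) and Asgr1 (-0.64). Cyp2a4 (-0.64), Tcap (-0.63), Sln (-0.62), Bex2 (-0.59) and Cyp2a5 (-0.58) followed. Pon1, Cyp2a4 and Cyp2a5 encode enzymes that oxidise or hydrolyse foreign compounds, and Cyp2a4 and Cyp2a5 are near-identical copies whose probes may read each other. On the mucous score SPRR2A, named as in the file, a protein of stressed and cornified epithelium, rose with both scores (1.29 and 0.72, adjusted p = 1.5e-18 and 4.5e-06). A pair of other probes of that name followed it at r of 0.133 and 0.163. The 10 largest negative slopes on the mucous score were small, from -0.40 (Sirpb1a) to -0.33 (Bcl2a1c). The other 8 belonged to Slc39a8, Exosc8, Gsn, Cav2, Ctps2, Foxf1, Neurl3 and H2-K2.

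**Figure D4:**
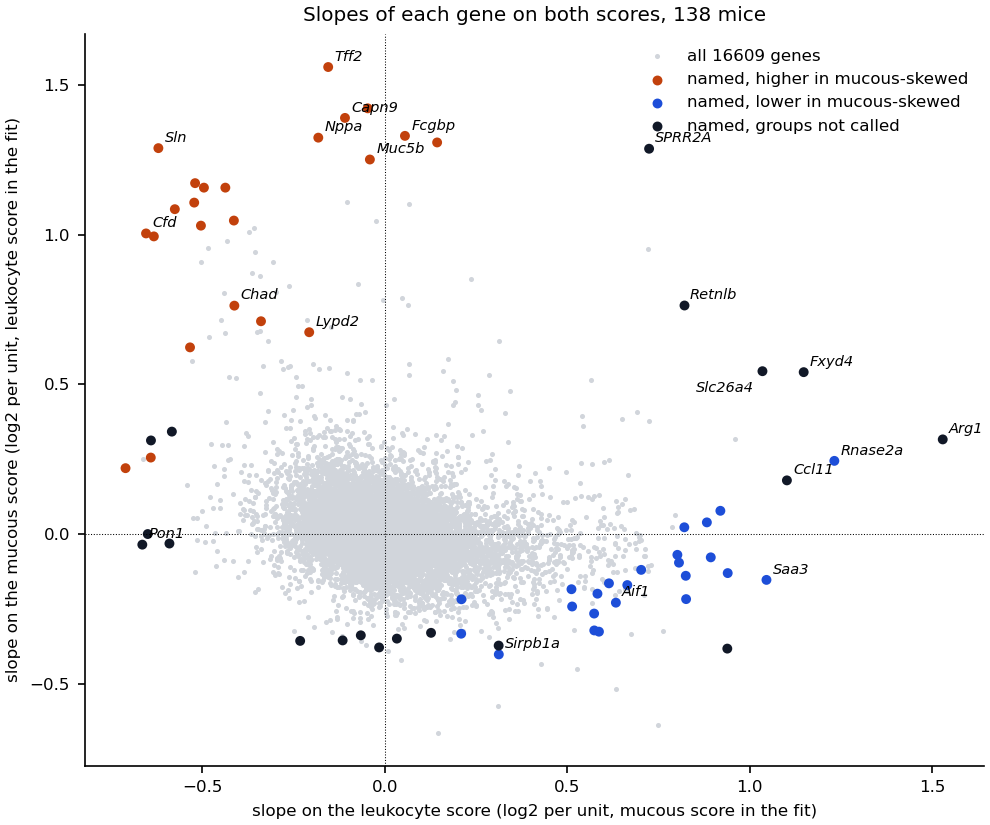
Slope of every tested gene on the mucous score (vertical axis) and on the leukocyte score (horizontal axis), in log2 units per unit of score, from one fit over 138 mice. Colours mark genes named by rule that were higher, lower or not called in the mucous-skewed mice. Tff2 and Capn9 lie high and near 0 on the horizontal axis, Arg1 and Ccl11 far right, and Slc26a4 and Fxyd4 in the upper right with positive slopes on both.

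The 78 mice outside both groups took no part in the group tests, although they entered the scores, so the same relation was looked for among them over their narrower spread. Across these mice 7 genes had a slope on the score difference at an adjusted p under 0.05 by limma. Muc5b (1.80 ± 0.35), Ern2 (1.46 ± 0.30), Fcgbp (1.70 ± 0.35) and Tff2 (2.13 ± 0.46) rose with it. Gtpbp10 (-0.52 ± 0.11) fell. The adjusted p-values of these genes were between 0.0189 and 0.0319. The rest of the 7 were Lypd2 (0.82 ± 0.15) and Capn9 (1.66 ± 0.35), which also rose. Both had been chosen for following the score difference over all mice, these 78 included. Their slopes are therefore a description with no test. Rnase2a, Ctsk and Saa3, lower in the mucous-skewed mice, had positive slopes there that did not pass, of 1.02, 0.19 and 0.35. In these 78 mice the difference and the sum of both scores correlated at r = 0.339. With the sum in the fit, a choice made after seeing the data, limma called 0 genes, with 1814 at an unadjusted p under 0.05.

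The groups were also restricted, after seeing the data, to mice with scores on opposite sides of the mean, 21 mucous-skewed and 12 leukocyte-skewed. This left 272 genes called, 0.783% of those tested higher and 0.855% lower. Of the mucous cell list 6 of 27 were higher and of the heart muscle list 2 of 12. Of the macrophage list 11 of 24, of the monocyte chemokine list 3 of 10 and of the cell division list 4 of 11 were lower.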

How the data were processed

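Whole-lung RNA of 138 mice was hybridised to Illumina WG6v2 arrays, 1 array per mouse. The authors deposited scanner signal intensity and detection p-values per probe, not normalized per the file headers, and a table of log2 values. Per the submitters' processing notes the tools were GenomeStudio, R 2.9.2 and RMA; the design text gives quantile normalization. Group membership was computed from the deposited log2 values.

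For the tests, the deposited intensities were background-corrected with the detection p-values and quantile-normalized (neqc, offset 16, limma 3.58.1, R 4.3.3). Of 45281 probes, 24450 were kept, those detected in 14 or more mice (p under 0.05), and the kept probe with the highest mean stood for its gene, giving 16609 genes without the 8 score genes. Such a choice can hide disagreement between probes. Both groups were compared by lmFit and eBayes with no covariate, Benjamini-Hochberg threshold 0.05. Slopes come from fits of both scores over all mice. Each line gave 1 mouse, so spread includes genetic differences between lines, and no replicate of a line exists.

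The members and the 43 gene lists were chosen with earlier results of these data known. Named genes are the 15 largest differences per direction past the threshold with detection in at least 30 of the 60 mice, the 10 largest slopes per direction with detection in at least 69 of the 138, the 5 most and 5 least alike genes, and list members; a few genes that the rule names are not reported here. Symbols were updated through RefSeq names. Alternatives covered normalization, probe filter, probe choice, covariates, group size, score genes and subsets of mice. Python 3.11.15 handled promoters and figures.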

Additional observations from a re-analysis of the deposited data

How the results depend on the processing

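The 1337 genes called between the groups became 580 with only title numbers of at most 120 and 162 above 120 (67.9% of them higher), 379 with heart muscle, fat, ciliated and smooth muscle scores as covariates (22.7% higher), 753 with the heart muscle score alone (38.4% higher), 307 with the macrophage score (88.9% higher), 829 with scores built without Ccl8, 2134 by slope over all 138 mice, 7 and 0 by slope over the other 78 mice without and with the sum of the scores, and 272 between mice with scores on opposite sides of the mean, against 51.8% higher in the comparison as reported. The cause of these shifts was not tested. Other alternatives, among them the deposited log2 values (1338), other probe filters, groups of 20 or 45 and leaving out any other score gene, gave 917 to 1662. The 2137 genes on the mucous score became 502 above title number 120 (81.3% higher, against 55.2%) and 1009 with the 4 tissue scores, and the 3900 on the leukocyte score became 2039 and 2456 in the lower and upper title ranges.

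With all 4 tissue scores the differences of Nppa (-0.00753), Myl3 (-0.29), Mybphl (-0.0236), Csrp3 (-0.0719), Mb (-0.33), Ckmt2 (-0.0221), Tnnc1 (-0.11) and Adipoq (-0.16) changed sign, and with the heart muscle score alone those of Nppa (-0.0775), Myl3 (-0.34), Mb (-0.32) and Tnnc1 (-0.11). Nppa and Myl3 are members of the heart muscle list and Adipoq of the fat list, so their own level is in the covariate. With the macrophage score the sign changed for Ccl9 (0.0585), C1qa (0.071), C1qb (0.0725), Trem2 (0.18), Mrc1 (0.091), Col1a1 (0.0985) and Saa3 (0.11), of which C1qa, C1qb, Trem2 and Mrc1 are members of the list averaged. Slopes over the other 78 mice had the opposite sign for Foxa1 (-0.0573), Foxa2 (-0.12), Aldh3a1 (-0.17), Cyp2f2 (-0.0428), Ephx1 (-0.15), Ccl17 (0.36), Ccr8 (0.15), Rnase2a (1.02), Ccr2 (0.29), Ccl7 (0.49), Ccl12 (0.0385), Ccl4 (0.53), Ccl3 (0.20), Ccl9 (0.17), Ctsk (0.19), Fcgr2b (0.17), Fcgr3 (0.0921), C1qa (0.17), C1qb (0.019), Trem2 (0.0184), Mrc1 (0.20), Mgl2 (0.0306), Clec4n (0.41), Rgs1 (0.38), Gpr176 (0.11), Cdk1 (0.043), Pbk (0.25), Cdkn3 (0.20), Timp1 (0.52), Saa3 (0.35), Lcn2 (0.16), Il1b (0.088), Cxcl9 (0.27), Cxcl10 (0.27), Ciita (0.0607), Il4i1 (0.54), Foxm1 (0.10), Hes1 (-0.0251), Hey1 (-0.049) and Krt19 (-0.0654), and with the sum of the scores in that fit for Reg3g (-0.17), Foxa1 (-0.0112), Foxa2 (-0.0704), Gsto1 (-0.0194), Adipoq (-0.0107), Ccr2 (0.12), Ccl4 (0.18), Ccl3 (0.0514), Clec4n (0.18), Neurl3 (0.14) and Krt19 (-0.023), all without passing the threshold.

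No paired analysis was possible, since each line gave 1 mouse and the score difference alone set the groups. An array chip block was not run, since the headers give no chip. Each line is 1 mouse, so line, animal and array cannot be told apart. Dim probes near the detection limit, such as Il13 and Ccr8, understate differences.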

Other observations

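Some further listed genes of airway cells and of whole-lung state differed between the groups (limma, adjusted over all genes tested), and the lists with 1 call below lie near the 8.05% called over all genes. In the mucous-skewed mice the Notch target genes Hes1 (0.28 ± 0.08, adjusted p = 0.0276) and Hey1 (0.28 ± 0.09, adjusted p = 0.0428) were higher, and Foxm1, a transcription factor of dividing cells, was lower (-0.52 ± 0.12, adjusted p = 0.00285), so that of 21 genes of the Notch and epithelial fate list 3 were higher and 1 lower. Of 13 ion transport genes 2 were higher, Fxyd3, a regulator of the sodium pump (0.81 ± 0.17, adjusted p = 0.000673), and Slc5a8, a sodium-coupled carboxylate transporter (0.52 ± 0.10, adjusted p = 0.000562). The keratin gene Krt19 (0.45 ± 0.10, adjusted p = 0.00246) was higher, and so was the receptor gene Erbb2 (0.44 ± 0.11, adjusted p = 0.00763), 1 of 10 genes of the EGF receptor list. Sdf2l1, which helps protein folding in the endoplasmic reticulum, was lower (-0.66 ± 0.18, adjusted p = 0.0105), 1 of 14 genes of the list for endoplasmic reticulum stress.

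The clock gene Nr1d1 was higher by 0.73 ± 0.22 (adjusted p = 0.0245), 1 of 8 evening clock genes, and the glucocorticoid-induced gene Zbtb16 by 0.87 ± 0.26 (adjusted p = 0.0269), 1 of 12 glucocorticoid genes. Nr1d1 lay at 5.86, 9.38 and 10.24 (lowest, median, highest) in the mucous-skewed mice and at 6.27, 8.56 and 9.68 in the leukocyte-skewed mice. The labels do not state the hour of harvest, and its part in these differences was not tested.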
